A study of Mus musculus with 12 samples.

Results

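Expression was examined for 59 genes of the Wnt signaling pathway in mIMCD3 cells, a line from the mouse inner medullary collecting duct: the Wnt ligands, their Frizzled receptors and co-receptors, the secreted antagonists, and the regulators and effectors that act behind the receptors. The genes were taken by symbol from a list of pathway members, and each of the 59 was found among the 47642 Ensembl genes of the table. Of these, 45 were treated as the canonical part, 11 as the planar polarity part, and the 3 Dishevelled genes serve both.

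RNA was sequenced from 3 genotypes with 4 libraries each: the wild-type line (Wt) and a single clone each of *Pkd1*-/- and *Pkd2*-/- cells. mIMCD3 is a renal tubular epithelial line derived from a mouse that carries the early region of simian virus SV40, so all genotypes, the controls included, carry this transgene. *Pkd1* was deleted by CRISPR and *Pkd2* by TALEN nucleases, and no agent was added to any group. Per genotype 6 dishes were grown, RNA was isolated 4 days after full confluency, and the 4 libraries are dishes of the same line, so that clone and genotype cannot be told apart and p-values measure the spread between dishes only.

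The libraries summed to between 25966273 and 28027792 normalized counts, which corresponds to an estimated 23188147 to 30325429 reads on genes. *Pkd1* held 682, 688, 883 and 876 normalized counts in wild-type and 40, 49, 48 and 30 in *Pkd1*-/- cells. *Pkd2* held 3438 to 4467 in wild-type and 3855 to 4135 in *Pkd2*-/- libraries, and because the deletion removes only internal exons, the count of the whole gene does not check this label. Of 17 collecting duct markers, 12 reached a mean of 10 normalized counts, among them *Cdh1*, *Epcam*, *Pax2*, *Pax8* and *Hoxb7*, while the water channel *Aqp2* was at 0 in all libraries and the vasopressin receptor *Avpr2* had a mean of 0.5 or less in each genotype. Endothelial markers summed to at most 10 counts per library. The 8 fibroblast markers summed to 32 to 58 counts in wild-type libraries, 89 to 103 in *Pkd1*-/- and 15 to 141 in *Pkd2*-/- libraries, the 5 immune markers to 47 to 73 over all libraries, the 5 proximal tubule markers to 480 to 557, 33 to 71 and 744 to 1222, and the 5 podocyte markers to 3089 to 3365, 3412 to 3584 and 2746 to 3043. In these sums *Lrp2* (means of 508, 46.2 and 934) and *Podxl* (48.5, 80.0 and 795) moved with genotype, as did the collecting duct marker *Gata3* (227, 48.5 and 354). *Col3a1* was higher in *Pkd1*-/- cells (66.2 ± 3.40) than in wild-type (4.75 ± 2.06). In *Pkd2*-/- cells *Col3a1* (14.5 ± 19.8) and *Col1a2* (12.75 ± 21.1) varied widely between dishes (SD, n = 4 each). *Synpo*, which made up most of the podocyte sum, had means of 3172.5, 3422.5 and 2108.5. It was thus lowest in *Pkd2*-/- cells, where *Podxl* was highest. The part of these genes in the results below was not tested. In bulk RNA, fewer cells that express a gene and less RNA of it per cell cannot be told apart.

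Wnt proteins are secreted, lipid-modified ligands that bind Frizzled receptors on neighboring cells. In the canonical branch, Frizzled and LRP co-receptors recruit Dishevelled, the complex of Axin and APC releases β-catenin, and β-catenin activates transcription through the TCF/LEF factors, which also induce inhibitors such as *Axin2*, *Nkd1*, *Rnf43* and *Znrf3*. In the planar polarity branch, Frizzled, Vangl and Prickle proteins orient cells within the plane of an epithelium. Both branches shape the renal tubule, where ligands from the collecting duct act on the surrounding mesenchyme and oriented cell division sets the tubule's diameter.

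The pathway was expressed at every level, but by a limited set of genes. Of the 59 members, 35 reached a mean of 10 normalized counts, 15 held at most 3 counts in all libraries, and 6 of these (*Wnt3a*, *Fzd10*, *Ror2*, *Sfrp4*, *Dkk1* and *Nkd1*) were at 0 throughout, which allows up to 3 counts per library by counting error alone. Differences were tested for the 43 members whose mean reached 1 normalized count, within a fit of all 18552 such genes, and a gene was called where the adjusted p-value lay under 0.05 and the log2 fold change was 1 or more in size. In *Pkd1*-/- cells 7 of the 43 were called, 3 higher (*Wnt6*, *Wnt10a* and *Tcf7*) and 4 lower (*Wnt5b*, *Fzd3*, *Fzd8* and *Dkk3*), beside 6.24% of all genes tested (2.96% higher, 3.28% lower). In *Pkd2*-/- cells 13 were called, 1 higher (*Wnt5b*) and 12 lower, beside 9.62% of all genes tested (3.24% higher, 6.38% lower). The direct comparison of *Pkd2*-/- with *Pkd1*-/- cells called 15, of which 3 were higher and 12 lower, beside 11.8% of all genes (4.53% higher, 7.23% lower). Some genes passed the filter only because 1 genotype was high, so these counts describe the members tested and not the pathway as a whole.

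Both comparisons with wild-type share the wild-type libraries. The same direction was called in both mutants for 2 members, *Fzd3* and *Fzd8*, both lower (2.08% of all genes tested were called the same way in both, 0.453% higher and 1.63% lower). Opposite directions were called for 3 members, all of them ligands: *Wnt5b*, *Wnt6* and *Wnt10a* (1.11% of all genes tested). With the adjusted p-value alone and no fold change threshold, 19 members passed in *Pkd1*-/- and 32 in *Pkd2*-/- cells, against 27.1% (13.6% higher, 13.5% lower) and 42.3% of all genes (22.3% lower), and 9 of them passed in both mutants with the same direction, against 10.4% of all genes. Between the mutants 29 passed, 12 higher and 17 lower, against 46.3% of all genes (21.9% higher, 24.3% lower). With a correction for GC content and length, 17 members passed higher and 17 lower in *Pkd2*-/- against wild-type (13 and 19 without it). Between the mutants 16 passed higher and 16 lower. The shares of all genes that passed in each direction under this correction were not computed, so these counts cannot be read as particular to the members. The same correction also moved the median log2 fold change over all genes. It went from −0.01 to 0.10 in *Pkd2*-/- against wild-type and from −0.01 to 0.08 between the mutants. The libraries of both groups did not overlap for 20, 30 and 29 of the 43 members in the 3 comparisons, against 27.1%, 37.2% and 41.8% of all genes. Of the 9, *Wnt4*, *Tcf7*, *Dvl1*, *Dvl3* and *Apc* were higher and *Wnt7b*, *Fzd3*, *Fzd8* and *Tcf7l2* lower. By the same measure *Wnt5b*, *Wnt6*, *Wnt10a*, *Wnt16*, *Fzd5*, *Lgr4* and *Tcf7l1* passed in both mutants in opposite directions. The share of all genes that did so was not computed. The median log2 fold change over the members tested was 0.06 in *Pkd1*-/- and −0.18 in *Pkd2*-/- cells, beside 0.01 and −0.01 over all genes.

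**Figure D1:**
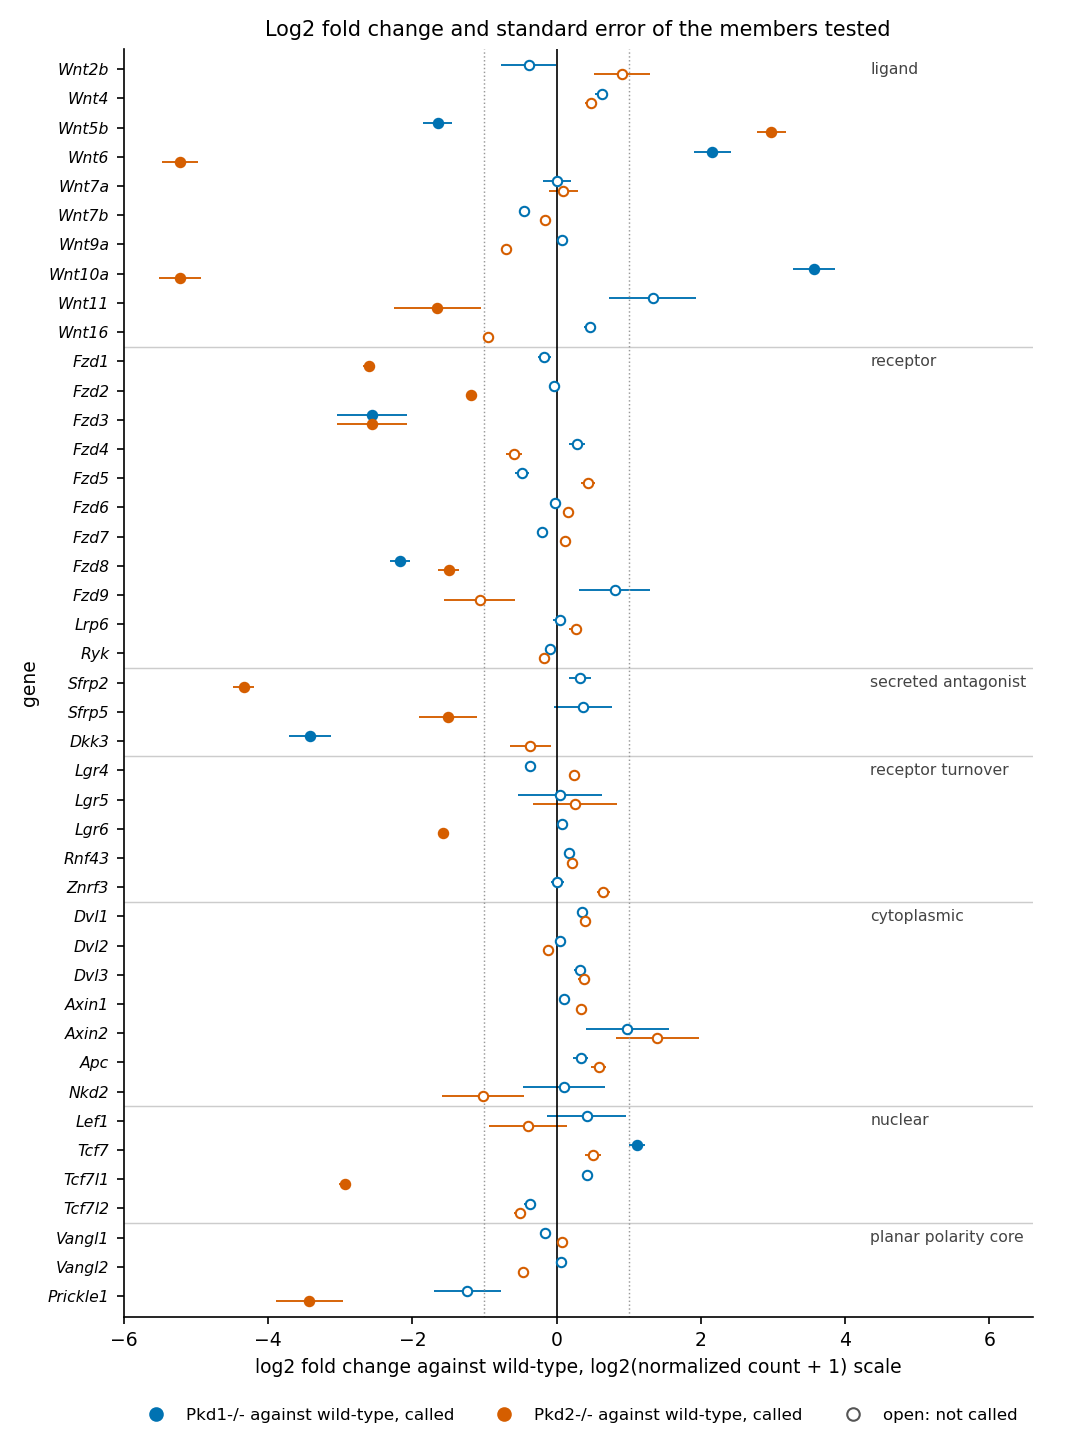
Log2 fold change against wild-type (x axis, log2(normalized count + 1) scale) of the 43 members tested, by role, for *Pkd1*-/- (blue) and *Pkd2*-/- cells (orange), with bars of 1 standard error from limma. Filled points are called (adjusted p under 0.05 and outside the dotted lines at −1 and 1); *Wnt5b*, *Wnt6* and *Wnt10a* have filled points on both sides of 0, and *Fzd3* and *Fzd8* have both on the left. For *Wnt6* and *Wnt10a* in *Pkd2*-/- cells the plotted value depends on the added count of 1.

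Among the ligands, *Wnt7b*, which is made by the collecting duct epithelium and drives the elongation of the renal medulla, was the main Wnt of these cells. Per kilobase of annotated exon it reached 2996 ± 143 normalized counts in wild-type (SD, n = 4), which was 78.1% of the summed level of all 16 ligands on this scale. It was followed by *Wnt9a* at 566 ± 53.6 per kilobase, and then by *Wnt4* at 92.3 ± 6.36 and *Wnt16* at 90.9 ± 4.43 (SD, n = 4 each). The library values of *Wnt4* and *Wnt16* overlapped, so that their order is not resolved, while *Wnt10a* at 36.87 ± 4.198 came next and *Wnt5b*, *Wnt6* and *Wnt7a* followed at 11.6 to 18.8 per kilobase, each overlapping its neighbor. Levels per kilobase depend on which annotated exons a cell uses.

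The 3 ligands that were called in both mutants went in opposite directions. *Wnt10a*, a canonical ligand known from teeth, hair and skin, held 101, 77, 96 and 90 normalized counts in wild-type libraries, 1046, 1094, 1185 and 1035 in *Pkd1*-/- and 3, 0, 2 and 2 in *Pkd2*-/- libraries. The genotypes did not overlap: the gene was 11.98-fold higher in *Pkd1*-/- cells (log2 fold change 3.57, standard error 0.29, adjusted p = 2.31e-08 from limma) and nearly absent from *Pkd2*-/- cells. With so few counts left, the fall is best given as a ratio of summed counts, which was 52.0 against wild-type with an exact 95% counting interval of 25.0 to 130. Against *Pkd1*-/- cells this ratio was 623, with an interval of 302 to 1550 (limma, adjusted p = 1.71e-14 for *Pkd2*-/- against *Pkd1*-/-). Per kilobase, *Wnt10a* thus moved from the 5th ligand in wild-type to the 3rd in *Pkd1*-/- cells, where it made up 12.3% of the ligand level and *Wnt7b* 61.02%.

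*Wnt6*, a canonical ligand of epithelia that can induce tubule formation in kidney mesenchyme, held 26, 35, 37 and 51 counts in wild-type and 158, 152, 203 and 154 in *Pkd1*-/- libraries. It was at 0 in all 4 *Pkd2*-/- libraries. The rise in *Pkd1*-/- cells was 4.48-fold (log2 fold change 2.16, standard error 0.25, adjusted p = 2.25e-06 from limma). Computed against the 3 counts per library that a 0 allows, *Wnt6* was at least 12.4-fold lower in *Pkd2*-/- than in wild-type cells and at least 55.6-fold lower than in *Pkd1*-/- cells. The gene lies next to *Wnt10a*: in GRCm38, *Wnt6* spans chromosome 1 from 74771892 to 74785322 and *Wnt10a* from 74791516 to 74804179, both on the plus strand and 6.2 kb apart. Of the other genes within 100 kb of *Wnt6*, *Ttll4* was the only one above a mean of 10, with means of 1263, 1446 and 1270 in wild-type, *Pkd1*-/- and *Pkd2*-/- cells (0.19 and 0.01 on the log2 scale). *Cyp27a1*, between *Ttll4* and *Wnt6*, had means of 2.25, 5.25 and 0. At these few counts it passed only between the mutants (−2.37, limma, adjusted p = 0.00654) and not against wild-type (limma, adjusted p = 0.199 and 0.187). The 57 expressed genes (mean of 10 counts or more) within 5 Mb of *Wnt6* had median log2 fold changes of 0.07 in *Pkd1*-/- and −0.14 in *Pkd2*-/- cells. A median over so many genes cannot show a change of a shorter stretch, and a local change of the chromosome was not tested.

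*Wnt5b*, which belongs to the planar polarity part, went the other way. It held 54, 53, 52 and 40 counts in wild-type libraries, 10, 14, 16 and 23 in *Pkd1*-/- and 412, 396, 452 and 333 in *Pkd2*-/- libraries. No library of 1 genotype overlapped another: the gene fell 3.16-fold in *Pkd1*-/- (log2 fold change −1.65, standard error 0.20, adjusted p = 4.21e-06 from limma) and rose in *Pkd2*-/- cells (2.98, standard error 0.20, adjusted p = 6.57e-10 from limma). Between the mutants the difference was 4.62 on the log2 scale, or 25.3-fold (standard error 0.20, adjusted p = 8.38e-13 from limma). In *Pkd2*-/- cells *Wnt5b* thus ranked behind *Wnt7b* and *Wnt9a* per kilobase (150 ± 18.6, SD, n = 4), not separated from *Wnt4* (129 ± 13.7, SD, n = 4). *Fbxl14*, on the opposite strand, lies within the *Wnt5b* gene over all of its 2963 bases, and had means of 1387, 1399 and 1957 in wild-type, *Pkd1*-/- and *Pkd2*-/- cells (log2 fold change 0.50 in *Pkd2*-/-). Whether reads were counted by strand is not given in the sources used here, so reads of both genes may not have been told apart where their exons meet.

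The promoters of these ligands are shown because both were called in opposite directions in the mutants, with the 250 bases before the start site from RefSeq on GRCm38.p6, written 5′ to 3′ on the strand of the gene. Of the 59 members, 43 had an entry in the RefSeq table used here, and *Wnt10a* had none. Matches to the core TCF/LEF motif, searched on both strands as CTTTGAA or as CTTTGAT or as CTTTGTA or as CTTTGTT, are in capitals.
*Wnt6*, chr1:74771642-74771891, plus strand: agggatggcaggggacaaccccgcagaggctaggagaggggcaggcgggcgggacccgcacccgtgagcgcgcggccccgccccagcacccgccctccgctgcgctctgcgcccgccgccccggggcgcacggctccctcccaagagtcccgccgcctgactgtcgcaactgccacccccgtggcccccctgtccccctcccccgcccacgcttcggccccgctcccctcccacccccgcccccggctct
*Wnt5b*, first start site, chr6:119544348-119544597, minus strand: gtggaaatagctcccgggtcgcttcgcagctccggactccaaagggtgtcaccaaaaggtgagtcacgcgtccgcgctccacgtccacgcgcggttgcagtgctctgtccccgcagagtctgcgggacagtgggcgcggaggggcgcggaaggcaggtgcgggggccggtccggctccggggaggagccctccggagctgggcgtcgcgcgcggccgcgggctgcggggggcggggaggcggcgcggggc
*Wnt5b*, start site 94961 bases downstream, chr6:119449387-119449636, minus strand: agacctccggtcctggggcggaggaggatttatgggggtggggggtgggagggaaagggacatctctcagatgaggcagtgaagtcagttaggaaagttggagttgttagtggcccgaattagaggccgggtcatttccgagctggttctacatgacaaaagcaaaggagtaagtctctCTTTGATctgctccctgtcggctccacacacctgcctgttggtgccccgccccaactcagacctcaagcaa
No match lay in the windows of *Wnt6* or of the first *Wnt5b* start site, whose GC content was 79.6% and 75.2%, and 1 match lay 71 bases before the downstream *Wnt5b* start site. The table of gene counts does not show which start site the *Wnt5b* reads came from. In all, 6 of the 43 members had a match before a start site (11.3% of their 53 windows), beside 14.8% of the 32851 windows and 16.8% of the 27025 genes in the RefSeq table. This describes the letters and says nothing of what binds there.

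**Figure D2:**
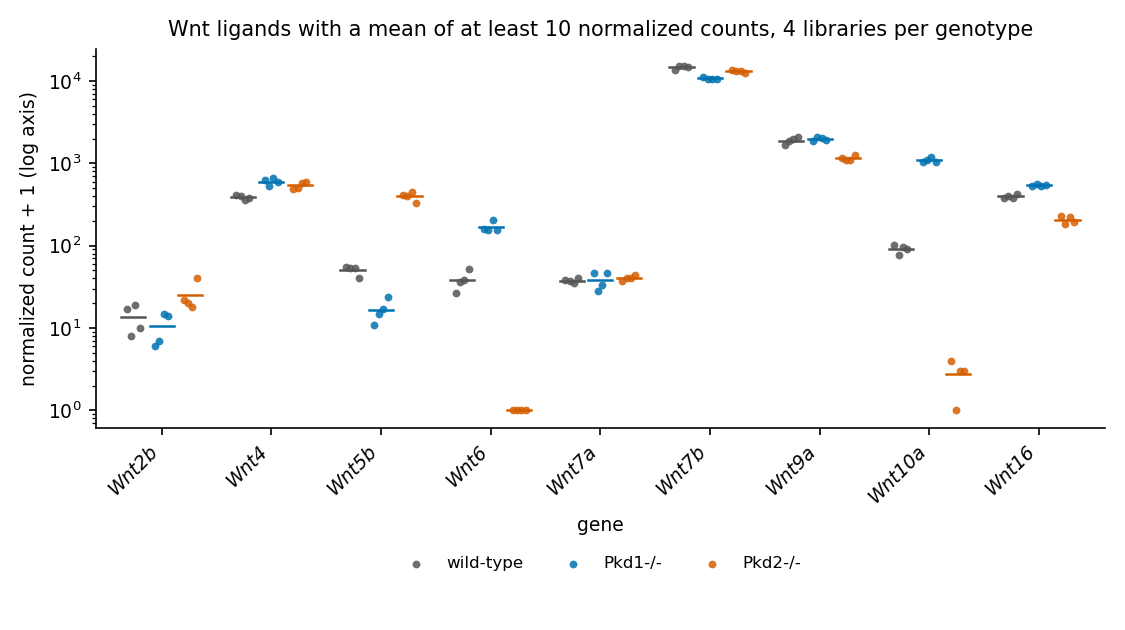
Normalized counts plus 1 (y axis, log scale) of the 9 ligands whose mean reached 10 normalized counts (x axis), with 1 point per library and a line at the mean of the 4 libraries, for wild-type (gray), *Pkd1*-/- (blue) and *Pkd2*-/- cells (orange). *Wnt6* is at 0 in all *Pkd2*-/- libraries, *Wnt10a* is highest in *Pkd1*-/- and *Wnt5b* highest in *Pkd2*-/- cells, and *Wnt7b* is the highest ligand in each genotype.

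The other expressed ligands changed less. *Wnt7b* held 13667, 15032, 15245 and 14762 counts in wild-type libraries, 11099, 10520, 10714 and 10691 in *Pkd1*-/- and 13445, 13270, 13123 and 12403 in *Pkd2*-/- libraries. All libraries of both mutants were below all wild-type libraries, with log2 fold changes of −0.45 in *Pkd1*-/- (limma, adjusted p = 3.2e-07) and −0.17 in *Pkd2*-/- cells (limma, adjusted p = 0.00503), both under the fold change threshold. *Wnt16*, which acts in bone and joint, held 379, 402, 383 and 421 counts in wild-type libraries, 533, 564, 537 and 552 in *Pkd1*-/- and 227, 180, 222 and 195 in *Pkd2*-/- libraries. It passed the test upward in *Pkd1*-/- (0.46) and downward in *Pkd2*-/- cells (−0.95), both under the threshold, and the mutants differed by −1.41 (standard error 0.08, adjusted p = 5.57e-11 from limma). *Wnt4*, the ligand that starts the epithelial conversion of nephron precursors, rose from 357 to 416 counts in wild-type libraries to 528 to 655 in *Pkd1*-/- and 488 to 600 in *Pkd2*-/- libraries without overlap (0.62 and 0.48, limma, adjusted p = 1.92e-05 and 0.000173). *Wnt9a* passed the test downward in *Pkd2*-/- cells, under the fold threshold (−0.70, limma, adjusted p = 1.06e-07), and its *Pkd2*-/- libraries at 1097 to 1270 counts were all below the 1663 to 2085 of wild-type. In *Pkd1*-/- cells *Wnt9a* held 1843 to 2071 counts and its log2 fold change of 0.07 had a 95% confidence interval of −0.07 to 0.21.

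At lower levels, *Wnt7a* held 34 to 40 counts in wild-type and 27 to 46 over the mutant libraries, and neither comparison passed the test (intervals of −0.42 to 0.42 and −0.33 to 0.51). *Wnt2b* held 16, 7, 18 and 9 counts in wild-type libraries, 5, 6, 14 and 13 in *Pkd1*-/- and 21, 19, 17 and 39 in *Pkd2*-/- libraries, and was called only between the mutants (1.29, standard error 0.38, adjusted p = 0.00954 from limma). *Wnt11*, a ligand of the planar polarity part that the tips of the ureteric bud express, held 0, 6, 6 and 7 counts in wild-type libraries, 10, 5, 16 and 13 in *Pkd1*-/- and 1, 1, 0 and 0 in *Pkd2*-/- libraries. It was called lower in *Pkd2*-/- cells (ratio of summed counts 9.50, exact 95% counting interval 2.29 to 84.1; limma, adjusted p = 0.0332), but 1 wild-type library held none, and without wild-type replicate 4 the adjusted p was 0.102. The call was also lost without wild-type replicate 2 or 3 and without *Pkd2*-/- replicate 3 or 4, with adjusted p-values of 0.0774 to 0.0974. *Wnt2*, *Wnt3*, *Wnt3a*, *Wnt5a*, *Wnt9b* and *Wnt10b* held at most 3 counts in any library and were not tested.

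The receptors were led by *Ryk*, an atypical Wnt receptor of the planar polarity part, at 1516 ± 56.1 normalized counts per kilobase in wild-type (SD, n = 4), followed by *Fzd6* at 909 ± 44.7 and *Fzd7* at 311 ± 16.8. *Fzd2*, the co-receptor *Lrp6* and *Fzd1* came next at 188 to 220 per kilobase with overlapping libraries. In total counts *Ryk* held 6583, 6737, 7092 and 7082 in wild-type libraries, 6694, 6200, 6512 and 6350 in *Pkd1*-/- and 5953, 5959, 6314 and 6058 in *Pkd2*-/- libraries, a small fall in *Pkd2*-/- cells (−0.18, limma, adjusted p = 0.00223). *Ryk*, *Fzd6* and *Fzd7* held the first 3 places in every genotype.

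*Fzd1* and *Fzd2* fell in *Pkd2*-/- cells. Both are canonical Frizzled receptors with an intronless gene. *Fzd1* held 730, 796, 750 and 873 counts in wild-type libraries, 676, 694, 729 and 697 in *Pkd1*-/- and 131, 146, 111 and 128 in *Pkd2*-/- libraries. It was 6.10-fold lower in *Pkd2*-/- than in wild-type cells (log2 fold change −2.60, standard error 0.08, adjusted p = 1.76e-14 from limma). Those of *Pkd1*-/- cells also lay just below wild-type, but this difference did not pass (−0.17, 95% confidence interval −0.35 to 0.01). *Fzd2* held 737, 793, 835 and 862 counts in wild-type libraries, 797, 778, 795 and 779 in *Pkd1*-/- and 361, 334, 329 and 393 in *Pkd2*-/- libraries, a 2.28-fold fall in *Pkd2*-/- cells (−1.19, standard error 0.07, adjusted p = 8.33e-11 from limma). Here *Pkd1*-/- cells lay within the range of wild-type (−0.03, interval −0.18 to 0.11). Around *Fzd1*, 37 expressed genes within 5 Mb had a median of −0.32 in *Pkd1*-/- and −0.09 in *Pkd2*-/- cells on the log2 scale.

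*Fzd8* and *Fzd3* fell in both mutants. *Fzd8*, a canonical receptor, held 221, 211, 241 and 254 counts in wild-type libraries, 58, 55, 51 and 40 in *Pkd1*-/- and 76, 91, 87 and 72 in *Pkd2*-/- libraries. No mutant library reached 100 counts and no wild-type library was below 211, with falls of 4.54-fold in *Pkd1*-/- (log2 fold change −2.17, standard error 0.14, adjusted p = 7.55e-10 from limma) and 2.84-fold in *Pkd2*-/- cells (−1.50, standard error 0.14, adjusted p = 5.93e-08 from limma). The fall was larger in *Pkd1*-/- cells, as the mutants differed by 0.67 (limma, adjusted p = 0.000546). *Fzd3*, a planar polarity receptor, was weakly expressed and held 5, 8, 8 and 4 counts in wild-type libraries, 0, 1, 0 and 0 in *Pkd1*-/- and 0, 0, 0 and 1 in *Pkd2*-/- libraries. Each mutant held 1 count in all, a ratio of summed counts of 25.0 with an exact 95% counting interval of 4.09 to 1026 (limma, adjusted p = 0.000465 and 0.00025). With a minimum mean of 10 counts *Fzd3* is not tested and *Fzd8* is the only member called the same way in both mutants.

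Below the fold change threshold, *Fzd5* moved in opposite directions, with 784 to 963 counts in wild-type libraries, 583 to 692 in *Pkd1*-/- (−0.48, limma, adjusted p = 0.000613) and 993 to 1378 in *Pkd2*-/- libraries (0.43, limma, adjusted p = 0.000826). *Fzd4*, which also binds the non-Wnt ligand norrin, held 132 to 173 counts in wild-type libraries, 166 to 198 in *Pkd1*-/- and 90 to 104 in *Pkd2*-/- libraries and passed only in *Pkd2*-/- cells (−0.59, limma, adjusted p = 0.000343). *Fzd7* was slightly lower in *Pkd1*-/- cells (−0.20), and *Fzd6* (0.16) and *Lrp6* (0.27) passed the test upward in *Pkd2*-/- cells with libraries that overlapped wild-type. *Fzd7* did not pass without wild-type replicate 4 (limma, adjusted p = 0.0613). Without wild-type replicate 2 or 3 or *Pkd2*-/- replicate 2 or 4, neither *Fzd6* nor *Lrp6* passed (limma, adjusted p = 0.0584 to 0.0821). Of the rest, *Fzd9* had means of 4.5, 8.5 and 2 and was called only between the mutants (−1.87, limma, adjusted p = 0.00389). *Ror1* held at most 4 counts in any library and, like *Ror2* and *Fzd10*, was not tested.

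**Figure D3:**
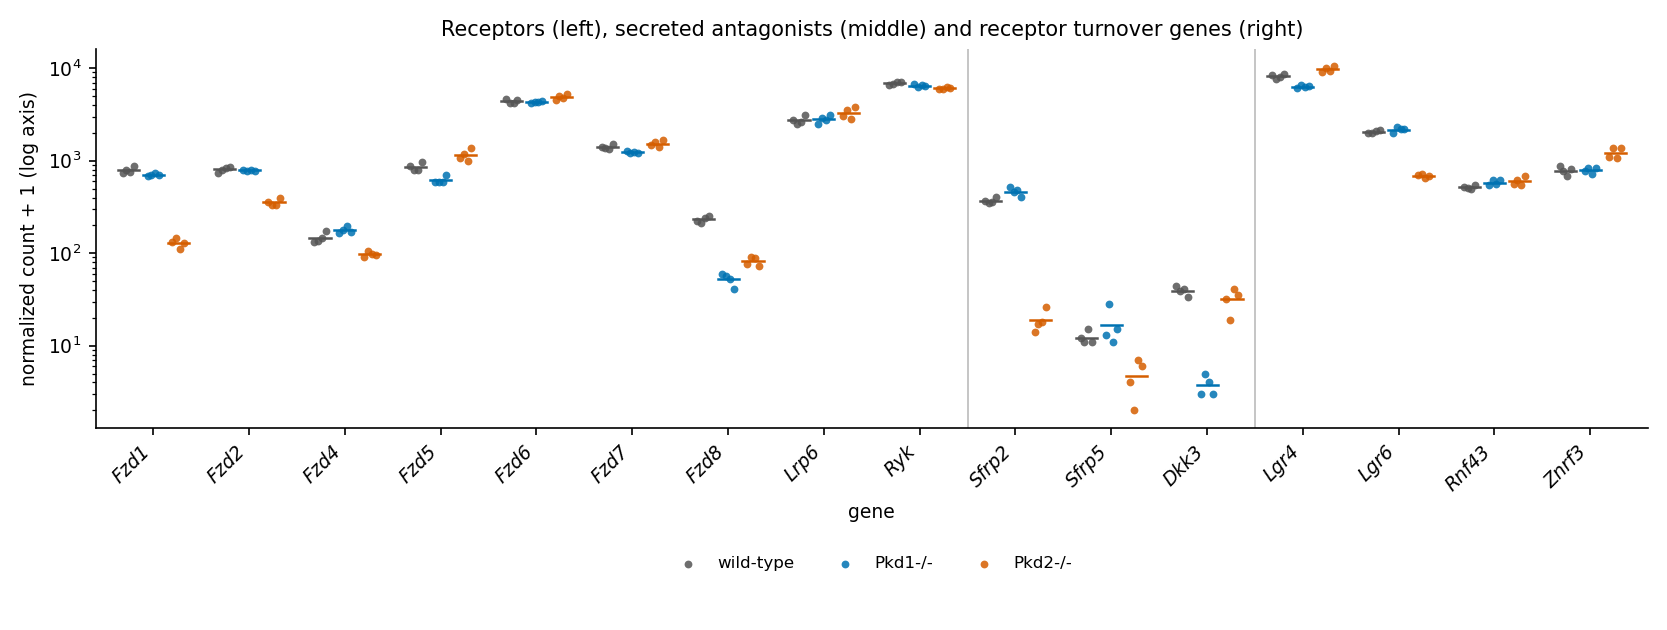
Normalized counts plus 1 (y axis, log scale) of the receptors, secreted antagonists and receptor turnover genes whose mean reached 10 normalized counts (x axis), with 1 point per library and a line at the mean of the 4 libraries of a genotype. *Fzd8* is lower in both mutants, *Fzd1*, *Fzd2*, *Sfrp2*, *Sfrp5* and *Lgr6* are lower in *Pkd2*-/- cells (orange), and *Dkk3* is lower in *Pkd1*-/- cells (blue).

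Of the 9 secreted antagonists, 3 were expressed, and each of them fell in 1 mutant. Over all genes tested, 3.28% were called lower in *Pkd1*-/- and 6.38% in *Pkd2*-/- cells. A set of 3 genes is too small to be weighed against these shares, and this was not tested. *Sfrp2*, a decoy that carries a Frizzled-like Wnt-binding domain, made up 90.5% of the antagonist level per kilobase in wild-type cells. It held 370, 350, 357 and 402 counts in wild-type libraries, 514, 456, 480 and 404 in *Pkd1*-/- and 13, 16, 17 and 25 in *Pkd2*-/- libraries. The fall in *Pkd2*-/- cells was 20.8-fold (log2 fold change −4.34, standard error 0.15, adjusted p = 4.35e-14 from limma). No *Pkd1*-/- library was as low as any wild-type library, but the difference did not pass (0.32, adjusted p = 0.128 from limma). *Sfrp2* spans chromosome 3 from 83766321 to 83774316 on the plus strand. *Gm26771*, annotated antisense to it, shares 464 bases with it and had means of 20.2, 7.5 and 10.8 in wild-type, *Pkd1*-/- and *Pkd2*-/- cells. *Gm26771* was called lower in *Pkd1*-/- cells (−1.51, limma, adjusted p = 0.0169) and did not pass in *Pkd2*-/- cells. *Tlr2*, within 100 kb of *Sfrp2*, had means of 1870, 1723 and 1290. Its fall in *Pkd2*-/- cells passed under the fold threshold (−0.54, limma, adjusted p = 1.25e-06). The 75 expressed genes within 5 Mb had median log2 fold changes of −0.06 in *Pkd1*-/- and −0.205 in *Pkd2*-/- cells. A local change was not tested. The 250 bases before the *Sfrp2* start site, shown because this gene had the largest fall among the antagonists, held no match to the TCF/LEF letters given above.
*Sfrp2*, chr3:83766071-83766320, plus strand: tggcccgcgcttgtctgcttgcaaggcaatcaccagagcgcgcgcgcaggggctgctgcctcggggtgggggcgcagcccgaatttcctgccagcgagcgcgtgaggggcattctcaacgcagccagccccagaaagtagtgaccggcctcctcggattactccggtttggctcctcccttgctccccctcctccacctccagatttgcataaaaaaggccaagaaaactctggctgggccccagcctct

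*Dkk3*, a divergent member of the Dickkopf family, showed the reverse pattern. It held 43, 38, 40 and 33 counts in wild-type libraries, 2, 4, 3 and 2 in *Pkd1*-/- and 31, 18, 40 and 34 in *Pkd2*-/- libraries, a fall in *Pkd1*-/- cells (log2 fold change −3.42, standard error 0.29, adjusted p = 3.41e-08 from limma). In *Pkd2*-/- cells it overlapped wild-type (−0.36, 95% confidence interval −0.97 to 0.24). *Sfrp5* held 11, 10, 14 and 10 counts in wild-type libraries, 12, 27, 10 and 14 in *Pkd1*-/- and 3, 1, 6 and 5 in *Pkd2*-/- libraries, and was lower in *Pkd2*-/- cells (−1.50, standard error 0.40, adjusted p = 0.00522 from limma). With a pseudocount of 5, its log2 fold change of −0.92 no longer reached the fold threshold. *Sfrp1*, *Sfrp4*, *Frzb*, *Wif1*, *Dkk1* and *Dkk2* held at most 4 counts in any library. The summed level of all 9 antagonists was 421.75 ± 19.3 normalized counts in wild-type libraries, 484 ± 45.4 in *Pkd1*-/- and 53.5 ± 14.1 in *Pkd2*-/- cells (SD, n = 4 each).

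The genes that set how many Wnt receptors stay at the surface were well expressed. LGR proteins bind R-spondins and block the ubiquitin ligases *Rnf43* and *Znrf3*, which remove Frizzled from the membrane. *Lgr4* led this group at 1394 ± 69.0 per kilobase in wild-type (SD, n = 4), with 8410, 7731, 8020 and 8645 counts in wild-type libraries, 6155, 6565, 6242 and 6347 in *Pkd1*-/- and 9015, 10004, 9314 and 10575 in *Pkd2*-/- libraries. It was lower in *Pkd1*-/- (−0.37, limma, adjusted p = 2.08e-05) and higher in *Pkd2*-/- cells (0.24, limma, adjusted p = 0.000823), both without overlap and under the fold threshold. *Lgr6* held 1994, 1978, 2086 and 2126 counts in wild-type libraries, 1983, 2290, 2175 and 2189 in *Pkd1*-/- and 692, 720, 652 and 688 in *Pkd2*-/- libraries. This 2.97-fold fall in *Pkd2*-/- cells (log2 fold change −1.57, standard error 0.05, adjusted p = 4.05e-14 from limma) was the only call of the group, while in *Pkd1*-/- cells its log2 fold change was 0.08 (95% confidence interval −0.04 to 0.19). The R-spondins themselves, listed among the other pathway genes, were at or near 0: *Rspo3* and *Rspo4* at 0 in all libraries, *Rspo1* at means of 0.25 or less and *Rspo2* at means of 3.50, 4.00 and 0.

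Of the 8 cytoplasmic genes 7 were tested, and none was called in any comparison, beside 6.24%, 9.62% and 11.8% of all genes, a share at which few calls would be found among 7 genes. By adjusted p-value alone, 3 passed in *Pkd1*-/- and 4 in *Pkd2*-/- cells, all higher. By that measure 27.1% (13.5% lower) and 42.3% (22.3% lower) of all genes passed. A shared direction of these few genes was not tested. *Axin1*, the scaffold of the β-catenin destruction complex, had the highest level per kilobase (792 ± 34.3 in wild-type, SD, n = 4). It held 2887, 2959, 3173 and 3107 counts in wild-type libraries, 3079, 3332, 3088 and 3504 in *Pkd1*-/- and 3792, 3649, 3925 and 3898 in *Pkd2*-/- libraries. The rise in *Pkd2*-/- cells passed the test (0.33, limma, adjusted p = 2.96e-05), while *Pkd1*-/- cells overlapped wild-type (0.10, 95% confidence interval −0.01 to 0.21). *Axin1* lies on the same chromosome as *Pkd1*, with 1542.2 kb between the genes. *Apc*, *Dvl1* and *Dvl3* were higher in both mutants by 0.32 to 0.58 on the log2 scale. *Apc*, the other scaffold of the destruction complex, held 1607 to 2039 counts in wild-type libraries, 1914 to 2799 in *Pkd1*-/- and 2497 to 3291 in *Pkd2*-/- libraries. In *Pkd1*-/- cells it overlapped wild-type (0.33, limma, adjusted p = 0.0217), and without wild-type replicate 2 or 3 or *Pkd1*-/- replicate 2 or 4 it did not pass (limma, adjusted p = 0.0536 to 0.0903). *Dvl1* rose from 1511 to 1646 counts in wild-type libraries to 1882 to 2167 in *Pkd1*-/- and 1865 to 2239 in *Pkd2*-/- libraries (0.36 and 0.39, limma, adjusted p = 0.000204 and 4.32e-05). *Dvl2*, at 2737 to 3493 counts in wild-type, passed in neither comparison with wild-type. *Nkd2*, an inhibitor of Dishevelled, held 1 to 8 counts in wild-type, 2 to 7 in *Pkd1*-/- and 0 to 4 in *Pkd2*-/- libraries and overlapped throughout.

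Of the TCF/LEF factors, *Tcf7l1* and *Tcf7* differed in *Pkd2*-/- against *Pkd1*-/- cells (−3.37 and −0.61, limma, adjusted p = 9.71e-17 and 0.000162). *Tcf7l2* and *Lef1* did not pass this test (limma, adjusted p = 0.189 and 0.246). *Tcf7l1*, which mostly acts as a repressor of Wnt targets, held 948, 986, 950 and 1056 counts in wild-type libraries, 1321, 1279, 1362 and 1336 in *Pkd1*-/- and 131, 123, 111 and 147 in *Pkd2*-/- libraries. It fell 7.70-fold in *Pkd2*-/- cells (log2 fold change −2.94, standard error 0.08, adjusted p = 8.65e-16 from limma) and was higher in *Pkd1*-/- cells without reaching the fold threshold (0.43, limma, adjusted p = 0.000304), with no overlap among the genotypes. *Tcf7*, a β-catenin partner that is itself a target of the pathway, held 171, 156, 118 and 149 counts in wild-type libraries, 291, 352, 305 and 331 in *Pkd1*-/- and 194, 223, 220 and 199 in *Pkd2*-/- libraries. It was called higher in *Pkd1*-/- cells (1.11, standard error 0.11, adjusted p = 3.4e-07 from limma) and passed under the threshold in *Pkd2*-/- cells (0.50, limma, adjusted p = 0.0012). *Tcf7l2*, the highest of the family per kilobase in wild-type (303 ± 40.9, SD, n = 4, overlapping *Tcf7l1*), held 3135, 2438, 2335 and 2737 counts in wild-type libraries, 2080, 1944, 2115 and 2069 in *Pkd1*-/- and 1835, 2013, 1593 and 2035 in *Pkd2*-/- libraries. Its falls of −0.37 and −0.51 passed the test under the fold threshold (limma, adjusted p = 0.00268 and 7e-05). In *Pkd2*-/- cells the order per kilobase was *Tcf7l2* (213), *Tcf7* (79.6) and *Tcf7l1* (32.6), and in *Pkd1*-/- cells *Tcf7l1* (338), *Tcf7l2* (234) and *Tcf7* (122), with no overlap between neighbors.

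The 8 feedback targets, which canonical signaling is known to induce in many tissues, comprised 5 genes at 12 counts or fewer in every library and 3 at higher levels. *Nkd1* and *Dkk1* were at 0 in all 12 libraries. *Axin2*, the most widely used readout of canonical signaling, held 0 counts in all wild-type libraries, 0, 0, 4 and 2 in *Pkd1*-/- and 1, 2, 3 and 1 in *Pkd2*-/- libraries. All *Pkd2*-/- libraries were above wild-type, but at counts that do not exceed the limit of 3 that a 0 allows, so no fold is given, and the difference did not pass (limma, adjusted p = 0.0597). It would pass with a pseudocount of 0.5, without the filter on low values, in a fit of the compared genotypes alone or with a correction for GC content and length (limma, adjusted p = 0.017 to 0.0446). *Lgr5* held 1, 1, 1 and 0 counts in wild-type libraries, 0, 2, 0 and 2 in *Pkd1*-/- and 1, 0, 3 and 1 in *Pkd2*-/- libraries. *Lef1* held 5, 2, 3 and 4 counts in wild-type libraries, 10, 12, 3 and 1 in *Pkd1*-/- and 3, 2, 1 and 4 in *Pkd2*-/- libraries. *Lgr5* and *Lef1* overlapped between each mutant and wild-type, and neither passed a test against wild-type at these low counts.

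The expressed feedback targets were *Rnf43*, *Znrf3* and *Tcf7*. *Rnf43* held 518, 506, 490 and 542 counts in wild-type libraries, 541, 610, 559 and 610 in *Pkd1*-/- and 555, 616, 543 and 680 in *Pkd2*-/- libraries. Only the difference in *Pkd2*-/- cells passed the test, and it was small (0.21, 95% confidence interval 0.05 to 0.37, limma, adjusted p = 0.0297). It did not pass without wild-type replicate 2 or 3 or *Pkd2*-/- replicate 2 or 4 (limma, adjusted p = 0.0614 to 0.118). *Znrf3* held 866, 764, 687 and 803 counts in wild-type libraries, 771, 824, 710 and 826 in *Pkd1*-/- and 1088, 1361, 1070 and 1383 in *Pkd2*-/- libraries. It was higher in *Pkd2*-/- cells without overlap (0.65, limma, adjusted p = 1.01e-05) and overlapped in *Pkd1*-/- cells (0.01, interval −0.18 to 0.20). Of the 8 genes, *Tcf7* in *Pkd1*-/- cells was therefore the only call. In *Pkd2*-/- cells 3 of the 6 tested passed by p-value alone, all of them higher. By that measure 42.3% of all genes passed in these cells (22.3% lower). Whether so few genes share a direction beyond these shares was not tested. The promoters of *Dkk1* and *Axin2* are shown as those of targets at or near 0 in these cells.
*Dkk1*, chr19:30549497-30549746, minus strand: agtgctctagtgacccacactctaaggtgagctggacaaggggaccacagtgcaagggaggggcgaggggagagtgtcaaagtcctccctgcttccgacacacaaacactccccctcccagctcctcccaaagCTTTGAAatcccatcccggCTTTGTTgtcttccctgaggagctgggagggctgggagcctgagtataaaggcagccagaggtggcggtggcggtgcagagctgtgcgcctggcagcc
*Axin2*, chr11:108920099-108920348, plus strand: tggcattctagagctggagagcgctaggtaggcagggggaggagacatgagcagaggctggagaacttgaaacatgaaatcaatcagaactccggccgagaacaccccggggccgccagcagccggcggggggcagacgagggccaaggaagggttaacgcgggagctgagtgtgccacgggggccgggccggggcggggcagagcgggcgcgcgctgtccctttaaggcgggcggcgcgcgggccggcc
The *Dkk1* window held 2 matches to the TCF/LEF letters, 117 and 98 bases before the start site, and the *Axin2* window held none. A match describes the letters and not a bound site.

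**Figure D4:**
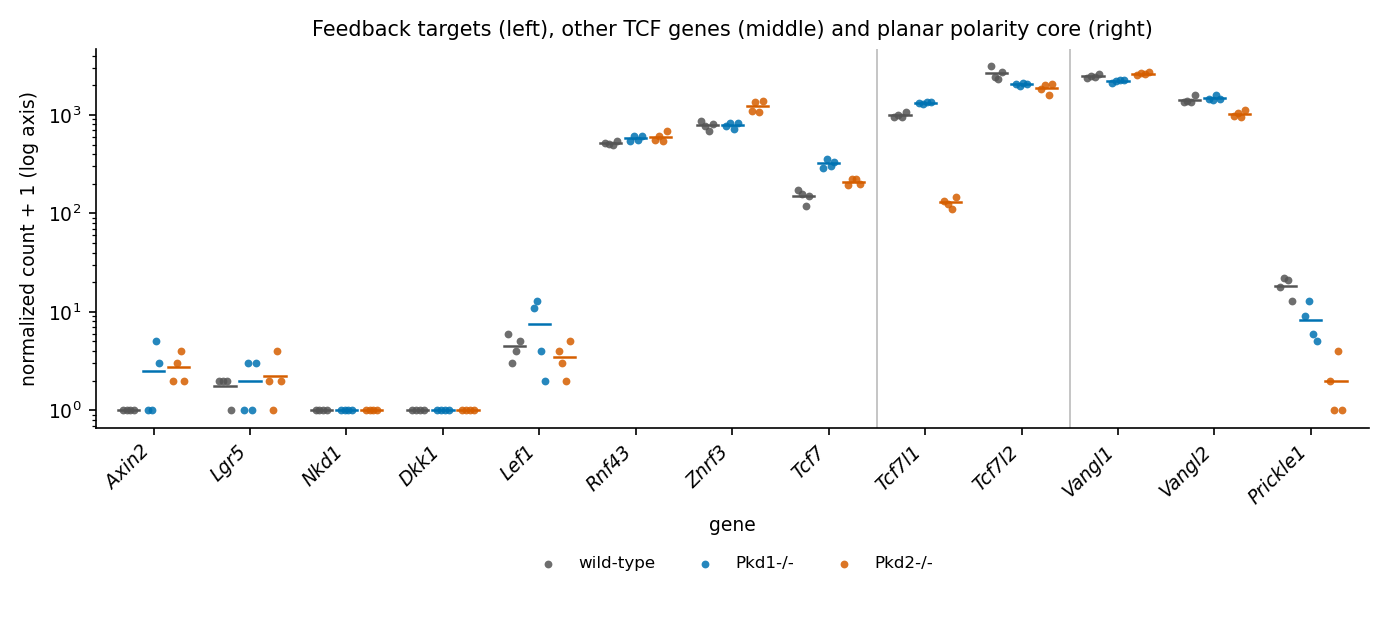
Normalized counts plus 1 (y axis, log scale) of the 8 feedback targets, the other TCF genes and the planar polarity core (x axis), with 1 point per library and a line at the mean of the 4 libraries of a genotype. *Axin2*, *Lgr5*, *Nkd1*, *Dkk1* and *Lef1* lie at 12 counts or fewer in every library, *Tcf7l1* is low in *Pkd2*-/- cells (orange), and *Vangl1* stays within 2095 to 2700 counts in all genotypes.

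In the planar polarity part, 8 of 11 members were tested, of which 2 were called in *Pkd1*-/- (*Wnt5b* and *Fzd3*, both lower) and 4 in *Pkd2*-/- cells (*Wnt5b* higher, *Wnt11*, *Fzd3* and *Prickle1* lower). The canonical part had 32 tested members, with 5 called in *Pkd1*-/- and 9 in *Pkd2*-/- cells, all 9 of them lower. Over all genes tested, 6.24% were called in *Pkd1*-/- and 9.62% in *Pkd2*-/- cells, with 6.38% called lower in the latter. A difference between these parts was not tested. *Vangl1*, a membrane protein of the core complex, held 2361, 2481, 2445 and 2624 counts in wild-type libraries, 2095, 2224, 2266 and 2236 in *Pkd1*-/- and 2535, 2666, 2571 and 2700 in *Pkd2*-/- libraries. The log2 fold changes were −0.17 (limma, adjusted p = 0.0114) and 0.08 (95% confidence interval −0.02 to 0.18). *Vangl2* held 1343, 1368, 1353 and 1589 counts in wild-type libraries, 1445, 1410, 1573 and 1446 in *Pkd1*-/- and 980, 1046, 944 and 1110 in *Pkd2*-/- libraries, a fall in *Pkd2*-/- cells under the fold threshold (−0.47, limma, adjusted p = 1.01e-05). *Prickle1*, the cytoplasmic partner of Vangl, held 17, 21, 20 and 12 counts in wild-type libraries, 8, 12, 5 and 4 in *Pkd1*-/- and 1, 0, 3 and 0 in *Pkd2*-/- libraries.

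*Prickle1* was thus highest in wild-type and nearly absent from *Pkd2*-/- cells (ratio of summed counts 17.5, exact 95% counting interval 6.54 to 66.0; limma, adjusted p = 7.08e-06). In *Pkd1*-/- cells its log2 fold change was −1.24 and did not pass (limma, adjusted p = 0.057). This value lies close to the threshold, and the main fit takes each gene's spread from all genotypes, *Pkd2*-/- included. In a fit of the compared genotypes alone the adjusted p was 0.017 (limma). Without *Pkd1*-/- replicate 2 the adjusted p was 0.0383 with a log2 fold change of −1.49. Without *Pkd2*-/- replicate 2, 3 or 4 it was 0.031 to 0.0493. Each of these would add *Prickle1* to the members called lower in both mutants.

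Outside the 59 members, 83 other genes of the pathway were examined, of which 68 were tested. In *Pkd1*-/- cells 13 of these were called (7 higher, 6 lower) and in *Pkd2*-/- cells 16 (3 higher, 13 lower), or 19.1% and 23.5%, beside 6.24% and 9.62% of all genes tested. The lists were chosen with earlier results of these data known. These shares thus describe the genes chosen, and their difference from all genes was not tested. None of the 18 cytoplasmic genes tested was called, and none of the 3 genes of Wnt processing. β-Catenin itself (*Ctnnb1*) had means of 41125, 37709 and 37819 counts in wild-type, *Pkd1*-/- and *Pkd2*-/- cells (log2 fold changes −0.13 and −0.12). *Wls*, which carries Wnt proteins to the cell surface, had means of 18101, 13506 and 18220 (−0.42 and 0.01). *Ctnnb1* and *Wls* were named after their values were seen.

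Of the other extracellular modulators, 6 of 9 tested were called lower in *Pkd2*-/- cells and none higher, beside 6.38% and 3.24% of all genes tested. Among the 6, *Rspo2* and *Gpc3* held few counts in every genotype. Their means in wild-type, *Pkd1*-/- and *Pkd2*-/- cells were 3.5, 4.0 and 0 for *Rspo2* and 4.5, 3.5 and 0.5 for *Gpc3*. The heparan sulfate proteoglycan *Gpc6* held 169, 155, 122 and 162 counts in wild-type and 0 in all *Pkd2*-/- libraries, at least 50.7-fold lower. *Gpc4*, of the same family, had 896 ± 54.2 counts in wild-type and 21.0 ± 6.98 in *Pkd2*-/- cells (−5.41, standard error 0.16, adjusted p = 4.43e-15 from limma). Neither glypican passed the test in *Pkd1*-/- cells. The secreted LRP antagonist *Sostdc1* held 153, 147, 131 and 150 counts in wild-type and 0, 0, 1 and 1 in *Pkd2*-/- libraries. *Reck*, a receptor cofactor for Wnt7 ligands, was lower in both mutants, at 196 ± 12.3 counts in wild-type libraries, 83.0 ± 13.7 in *Pkd1*-/- and 33.5 ± 1.73 in *Pkd2*-/- cells (−1.24 and −2.51, limma, adjusted p = 1.63e-06 and 4.63e-11, SD and n = 4 throughout). *Tspan12*, a cofactor of *Fzd4*, fell in *Pkd1*-/- cells from 1689 ± 129 to 580 ± 98.2 counts (−1.55, limma, adjusted p = 4.31e-10). In *Pkd2*-/- cells it passed upward under the fold threshold, at 2360 ± 140 counts without overlap with wild-type (0.48, limma, adjusted p = 0.000414).

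Among the nuclear cofactors, 1 of 11 was called in each mutant (9.09%), a share near the 6.24% and 9.62% of all genes. The corepressor *Tle4* held 434 to 486 counts in wild-type libraries, 221 to 273 in *Pkd1*-/- and 1026 to 1211 in *Pkd2*-/- libraries and was called higher in *Pkd2*-/- cells (1.26, standard error 0.08, adjusted p = 1.98e-10 from limma). In *Pkd1*-/- cells it passed downward under the fold threshold (−0.86, limma, adjusted p = 9.34e-08), and the gene called there was the β-catenin cofactor *Pygo1*, named after its values were seen.

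Of the other planar polarity genes, 5 of the 15 tested were called in each mutant, beside 6.24% and 9.62% of all genes tested. Among those called, *Fat4* and *Fjx1* had a mean under 10 counts over all libraries. *Fat4* was called higher in *Pkd1*-/- (2.06) and lower in *Pkd2*-/- cells (−2.20). *Fjx1* was called lower in both (−2.03 and −3.90). *Celsr1*, a cadherin of the core complex, held 1634, 1629, 1869 and 2016 counts in wild-type and 497, 606, 601 and 690 in *Pkd1*-/- libraries (−1.58, standard error 0.10, adjusted p = 6e-10 from limma). In *Pkd2*-/- cells, with 1560 to 2116 counts, it overlapped wild-type and did not pass (limma, adjusted p = 0.988). *Prickle3* held 164, 212, 197 and 183 counts in wild-type libraries, 135, 140, 165 and 177 in *Pkd1*-/- and 2, 4, 8 and 7 in *Pkd2*-/- libraries, a fall in *Pkd2*-/- cells (−5.04, standard error 0.26, adjusted p = 1.47e-11 from limma). *Ankrd6*, which antagonizes canonical signaling, was higher in both mutants, with 4, 6, 6 and 7 counts in wild-type libraries, 29, 35, 25 and 44 in *Pkd1*-/- and 17, 23, 25 and 16 in *Pkd2*-/- libraries. *Daam2*, a formin that binds Dishevelled, moved in opposite directions (2.25 and −1.13), from 10.2 ± 2.99 counts in wild-type libraries to 51.2 ± 5.68 in *Pkd1*-/- and 4.25 ± 1.71 in *Pkd2*-/- cells (SD, n = 4 each).

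Among the 16 other target genes, which many pathways besides Wnt also control, 5 of the 12 tested were called in *Pkd1*-/- (4 higher, 1 lower) and 4 in *Pkd2*-/- cells (1 higher, 3 lower). Over all genes tested, 2.96% were called higher and 3.28% lower in *Pkd1*-/- cells, and 3.24% and 6.38% in *Pkd2*-/- cells. The ephrin receptor *Ephb3* held 21, 45, 30 and 17 counts in wild-type libraries, 671, 719, 639 and 690 in *Pkd1*-/- and 0 in all *Pkd2*-/- libraries. It rose in *Pkd1*-/- cells (4.63, standard error 0.26, adjusted p = 9.72e-11 from limma) and was at least 9.42-fold lower in *Pkd2*-/- cells. The related *Ephb2* held 1075, 1006, 919 and 886 counts in wild-type libraries, 86, 97, 97 and 100 in *Pkd1*-/- and 1024, 787, 857 and 939 in *Pkd2*-/- libraries. It was 10.2-fold lower in *Pkd1*-/- cells (limma, adjusted p = 4.88e-15) and overlapped wild-type in *Pkd2*-/- cells. The adhesion receptor *Cd44* and the cyclin *Ccnd2* were higher in *Pkd1*-/- (1.25 and 2.12) and lower in *Pkd2*-/- cells. *Cd44* held 406 to 478 counts in wild-type libraries, 973 to 1120 in *Pkd1*-/- and 167 to 246 in *Pkd2*-/- libraries. The transcription factor *Sox9* was higher in *Pkd1*-/- cells (1.18, limma, adjusted p = 0.00156). *Fosl1* was called higher in *Pkd2*-/- cells (1.39, limma, adjusted p = 8.44e-09) and passed upward under the fold threshold in *Pkd1*-/- cells (0.81, limma, adjusted p = 1.77e-05).

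**Figure D5:**
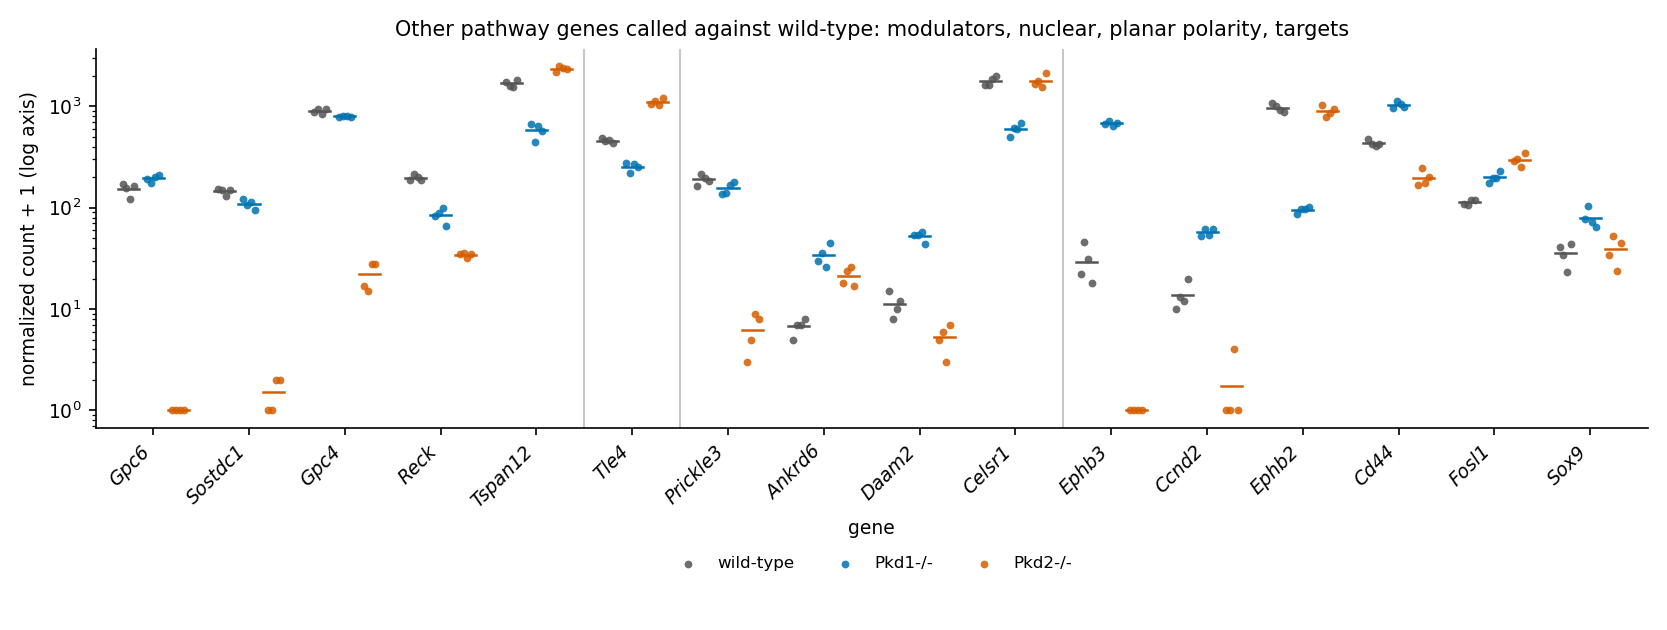
Normalized counts plus 1 (y axis, log scale) of 16 other pathway genes named by the size of their change (x axis), with 1 point per library and a line at the mean of the 4 libraries of a genotype. *Gpc6* and *Ephb3* are at 0 in all *Pkd2*-/- libraries (orange), and *Ephb2* and *Celsr1* are lowest in *Pkd1*-/- cells (blue).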

How the data were processed

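RNA-seq values of 12 libraries were used, 4 per genotype. Per the study's methods, the authors trimmed reads with Trim Galore, checked them with FastQC, aligned them to the mouse genome with HISAT2, counted them with HTSeq and normalized the counts with DESeq2. The deposited table holds these normalized counts rounded to whole numbers, treated here as a score and not as raw counts. The strand setting is not given in the sources used here. From the table, log2(value + 1) was tested with limma 3.58.1 in R 4.3.3 (empirical Bayes with trend) in 1 fit of all 3 genotypes, for the 18552 genes whose mean reached 1, with Benjamini-Hochberg adjustment, and the test was checked on simulated data. Calls needed an adjusted p under 0.05 and a change of 1 or more on the log2 scale. An exact two-sided permutation test of 4 against 4 libraries cannot go below 0.0286. Intervals of summed counts and the limit of 3 counts for a 0 cover counting error only. Gene names were matched for 47223 identifiers and not for 419. Values in every library were given for members called the same way in both mutants, members called in any comparison at a mean of 10 or more, the member of each role with the highest wild-type level per kilobase, the feedback targets and the planar polarity core. Of each other pathway list, up to 6 genes called against wild-type at a mean of 10 or more were named by size of change. The members and lists were chosen with earlier results of these data known. The alternatives were other pseudocounts, filters, a rescaling, a replicate block, fits of the compared genotypes alone, leaving out each library and, added after seeing the data, a correction for GC content and length. Sequences are from RefSeq (GRCm38.p6), and coordinates from GENCODE M21 on GRCm38.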

Additional observations from a re-analysis of the deposited data

Results flagged for a closer look

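In 4 of 105 groups of 4 libraries examined, 1 library stood apart from the other 3 by Dixon's criterion, where chance gives about 1 in 20, or 5.25 groups. They were *Wnt5b* in wild-type replicate 4 (40 normalized counts, the others at 52 to 54), *Wnt6* in *Pkd1*-/- replicate 3 (203, the others at 152 to 158), *Fzd5* in *Pkd1*-/- replicate 4 (692, the others at 583 to 586) and *Vangl2* in wild-type replicate 4 (1589, the others at 1343 to 1368). For 3 ligands opposite directions from wild-type were called in the mutants, and the difference between the mutants was itself tested with limma. *Wnt16* also passed in opposite directions, but under the fold threshold. On the log2 scale, *Pkd2*-/- minus *Pkd1*-/- was 4.62 for *Wnt5b*, −7.38 for *Wnt6* and −8.80 for *Wnt10a*.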

How the results depend on the processing

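The members called numbered 7 in *Pkd1*-/- against wild-type, 13 in *Pkd2*-/- against wild-type, 15 between the mutants and 2 the same way in both. Without a fold threshold these became 19, 32, 29 and 9. With a minimum mean of 10 counts, 1 member (*Fzd8*) was called the same way in both. Leaving out each library in turn gave 7 to 8, 12 to 14, 15 to 16 and 2 to 3. The replicate numbers did not pair the libraries (12 correlations of deviations between −0.041 and 0.057), and a fit with the replicate block called 8, 13, 15 and 3, adding *Prickle1* in *Pkd1*-/- cells. Correction for GC content and length, chosen after seeing the data, called 7, 15, 15 and 2, and without a fold threshold gave 17 members higher and 17 lower in *Pkd2*-/- cells (13 and 19 without it). It also moved the median log2 fold change over all genes in *Pkd2*-/- against wild-type from −0.01 to 0.10. The shares of all genes that passed under it were not computed. No direction of a called member reversed under the alternatives run. With a pseudocount of 5, *Wnt11* and *Sfrp5* in *Pkd2*-/- cells fell below the fold threshold, and in a fit of the compared genotypes alone *Wnt11* was lost (limma, adjusted p = 0.0724). Such a fit called *Prickle1* lower in *Pkd1*-/- cells (limma, adjusted p = 0.017). *Wnt2b* in *Pkd2*-/- cells was called higher with the GC and length correction and without wild-type replicate 3 (limma, adjusted p = 0.0343 and 0.0428). *Fzd9* in *Pkd2*-/- cells was called lower without *Pkd2*-/- replicate 3, and *Lef1* between the mutants without *Pkd1*-/- replicate 4 (limma, adjusted p = 0.0342 and 0.0395), and *Fzd9* between the mutants fell below the fold threshold with a pseudocount of 5. These members, like *Prickle1* and *Axin2*, hold few counts, and depth limits what can be said of them.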
